A study of Caenorhabditis elegans with 4 samples.

Results

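The str genes of Caenorhabditis elegans are a family of G protein-coupled receptor genes, many of them used by a few sensory neurons to detect odours and other chemicals. UNC-62, a homeodomain protein of the MEIS class that acts with PBC and Hox proteins, was mapped in embryos, a stage at which this family is rarely active. Members were all protein-coding genes of the 6 nuclear chromosomes whose symbol is str- followed by a number, which gave 193 of 19971 genes. Of these 193, 156 lie on chromosome V, 28 on IV, 5 on X, 2 on III and 1 each on I and II. A further 33 str genes are annotated as pseudogenes and were kept apart.

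The embryos were hermaphrodites of strain OP600 grown at 20 °C. All samples carry the allele unc119(ed3) and the transgene wgIs600, introduced by bombardment. It holds unc119 and a copy of unc-62 with TY1, EGFP and FLAG tags, so the protein mapped is the tagged copy, and no group here lacks the transgene. Worm material was crosslinked with 2% formaldehyde, and the fragments pulled down with antibodies against GFP were sequenced (ChIP-seq). The 4 samples are 2 UNC-62 ChIP replicates and 2 Input replicates, the unenriched DNA of the lysates. The labels do not say whether separate cultures were used, and lists for the Input samples were not analysed here.

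The measurement is whether the authors' peak caller placed a binding region near a gene. The 3 lists hold 7964 regions for the series, 7782 for replicate 1 and 3138 for replicate 2, on the WS220 genome build. Their largest deposited value, read here as a q-value, was 0.00999 in replicate 1 against 0.000998 in replicate 2 and 0.000997 in the series list. A smaller q-value means a stronger region, and q-values rank regions only within their own list. Read counts are not part of the lists, so depth is unknown and no value has a counting error. A gene was counted as having a region when the midpoint of a region fell in the gene body or within 2 kb of either end. Both sides were taken because the gene table at hand gives no strand, so the upstream side is not known.

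Few str genes had an UNC-62 region nearby. In the series list 20 of the 193 did, or 10.4% (exact 95% Clopper-Pearson interval 6.45 to 15.6%), where 36.3% of the 19778 other protein-coding genes did. The difference was -25.98 percentage points (95% Newcombe interval -29.6 to -20.8), and the str share was 0.285 of the share of the others. The replicate 1 list gave 18 str genes, 9.33% (interval 5.62 to 14.3%), against 35.5% of the others. The replicate 2 list gave 9, 4.66% (interval 2.15 to 8.67%), against 17.2% of the others. The str share was 0.263 of the others' share in replicate 1 and 0.271 in replicate 2, with lists that end at different q-values. Held to q-values under 0.001, replicate 1 gave 11 str genes (5.7%) against 28.7% of the others, or 0.199 of their share. These intervals treat genes as independent, although neighbouring genes can share a region, and no test of the family against other genes was made.

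**Figure D1:**
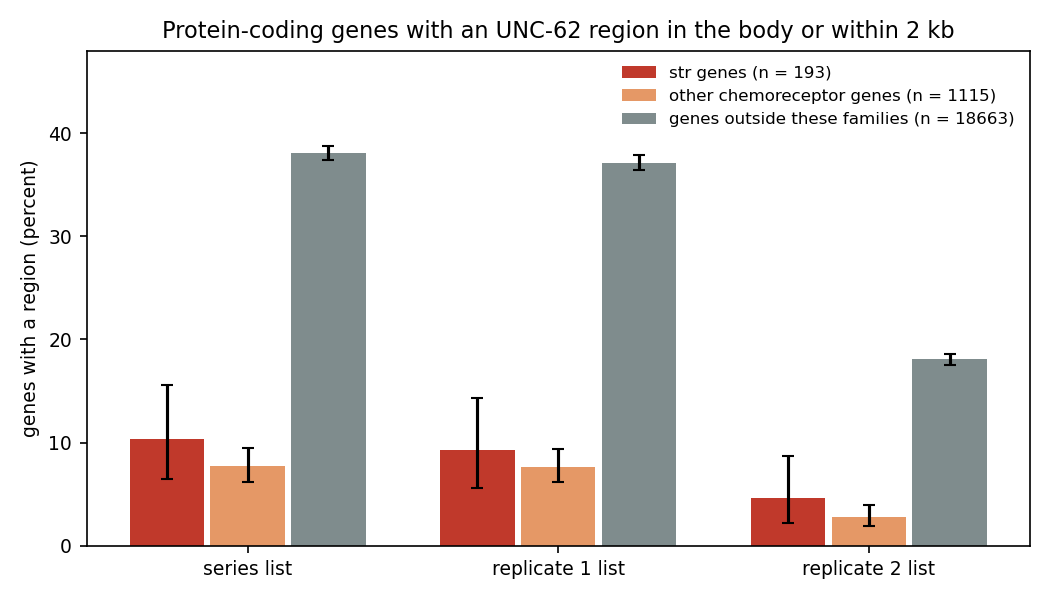
Percent of genes with a region midpoint in the body or within 2 kb of either end, by list, with exact 95% intervals as error bars. The str genes stand at 10.4%, 9.33% and 4.66% in the series, replicate 1 and replicate 2 lists, below the genes outside the chemoreceptor families in each list.

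Without strand, the count of str genes with a region in the body or upstream can only be bracketed. In the series list 4 str genes meet that rule whatever their strand, 3 with a region inside the gene and 1 with regions on both sides, and 16 more have regions on one side only. The count therefore lies between 4 and 20 of 193, or 2.07% to 10.4%. For the other protein-coding genes the same bounds are 13.1% and 36.3%. Both bounds are lower for the str genes than for the others.

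The bodies of str genes were nearly free of regions. Only 3 of 193 had a midpoint inside the gene, or 1.55% (interval 0.322 to 4.48%), against 9.71% of the others. The str genes are shorter, with a median length of 1604 bp against 2019 bp. Counted per length, their bodies held 8.01 regions per Mb and those of the others 48.3 per Mb. With 2 kb added on each side the densities were 23.6 and 77.1 per Mb. Genes of the other chemoreceptor families had similar values to the str genes. Among these 1115 genes, 1.52% had a midpoint inside the gene. They held 8.72 regions per Mb in their bodies and 18.0 per Mb with 2 kb added on each side.

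The strongest region at a str gene lay near str-67 (CELE_K10C9.6), at V 1060444 to 1060814, with q-values of 1.69e-36 in the series list, 6.52e-25 in replicate 1 and 1.04e-13 in replicate 2. It is ranked 474 of 7964. Its midpoint is 1.96 kb from str-67, at the edge of the window, and 0.966 kb from rnst-2, which encodes a ribonuclease of the T2 class.

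Next came str-187 (CELE_F26D10.8), the only str gene with series regions on both sides. Its strongest region, IV 17268525 to 17269035, had q-values of 2.49e-33, 2.07e-23 and 3.29e-11 in the series, replicate 1 and replicate 2 lists. This one is 1.85 kb from str-187 and 0.562 kb from atgp-1, a gene for the glycoprotein subunit of an amino acid transporter. A weaker one, IV 17267450 to 17267916, lies between the same genes and is closer to str-187, at 0.757 kb. It had q-values of 6.65e-06 in the series list and 0.000148 in replicate 1, and no counterpart within 2 kb of the gene in replicate 2. The region on the other side, IV 17263727 to 17264001, was weak in the series list, with a q-value of 0.000213.

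The neighbours str-56 (CELE_T06C12.3) and str-57 (CELE_T06C12.2) share 1 region, V 15873691 to 15874156. Its q-values were 8.67e-33, 2.18e-20 and 7.92e-12 in the series, replicate 1 and replicate 2 lists. The midpoint lies 0.154 kb from str-56 and 0.17 kb from nhr-102, a nuclear hormone receptor gene on the other side. The genes flanking this region are thus almost equally near to it.

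On X, str-74 (CELE_C14H10.4) had a region at 10238071 to 10238642 with q-values of 2.36e-32, 1.48e-20 and 2.25e-12 in the same order. It also lies midway between 2 genes, 1.45 kb from str-74 and 1.41 kb from zipt-13, which encodes a zinc transporter of the ZIP family. The 4 regions at str-67, str-187, str-56 with str-57, and str-74 were the only ones at str genes among the strongest 10% of the series list. They are 4 of the 23 series regions at str genes, and that part holds 10% of all regions by definition.

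Regions of middle strength were listed in all 3 lists at 4 more str genes. At str-245 (CELE_F32A7.7), the only str gene on chromosome I, the q-values were 2.68e-16, 1.64e-10 and 6.08e-05. That region, I 14855467 to 14855930, lies inside aex-5, a proprotein convertase gene, and near unc-54, the major body-wall muscle myosin heavy chain gene. At str-238 (CELE_R09E12.4) they were 1.15e-13, 1.12e-09 and 5.79e-05. There the region, V 773304 to 773618, is 0.876 kb from str-238 and 0.057 kb from sti-1, which encodes a co-chaperone of Hsp90.

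The region at str-170 (CELE_T08B6.7) stands out by its place. It lies at IV 4880719 to 4881052, 0.57 kb from str-170, with q-values of 4.63e-13, 4.54e-08 and 7.31e-05. No other protein-coding gene has this midpoint in its body or within 2 kb, which holds for no other region at a str gene that all 3 lists contain. At str-31 (CELE_C54F6.10) the q-values were 6.85e-10, 5.78e-06 and 0.000355. Its region, V 7508563 to 7508819, has its midpoint 0.025 kb from the gene, while nhr-172, another nuclear hormone receptor gene, is 0.303 kb away. The 100 bp by which the gene table and the regions may be out of step exceeds the first of these distances.

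The other 11 str genes had regions in the series list but not in replicate 2. Of these, str-94 (CELE_F07C3.8) had the strongest, with 7.61e-09 in the series list and 2.79e-07 in replicate 1, 0.418 kb from the gene. It was followed by str-12 with 1.37e-08 and 2.46e-07, and by str-41 with 1.83e-06 and 0.00102. The remaining 8 had series q-values from 9.41e-05 at str-141 to 0.000858 at str-268. The region at str-159, 22 bp wide with a q-value of 0.000849, was the narrowest. Among them, str-176, str-206 and str-268 had no region in replicate 1 either. One further gene, str-198, had a region in replicate 1 alone, 34 bp wide, with a q-value of 0.00445.

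All 3 series regions inside a str gene belong to this weak set. They lie in str-176 (IV 8463210 to 8463369, q-value 0.000358), in str-268 (IV 17150296 to 17150338, 43 bp wide, q-value 0.000858) and in str-81 (V 19242605 to 19242919, q-value 0.000324). Replicate 1 listed only that of str-81, at 0.00575. These genes are long for the family, at 2818, 6863 and 25563 bp. No str gene had a region inside it in replicate 2, where 3.87% of the other protein-coding genes and 0.269% of the other chemoreceptor genes did.

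**Figure D2:**
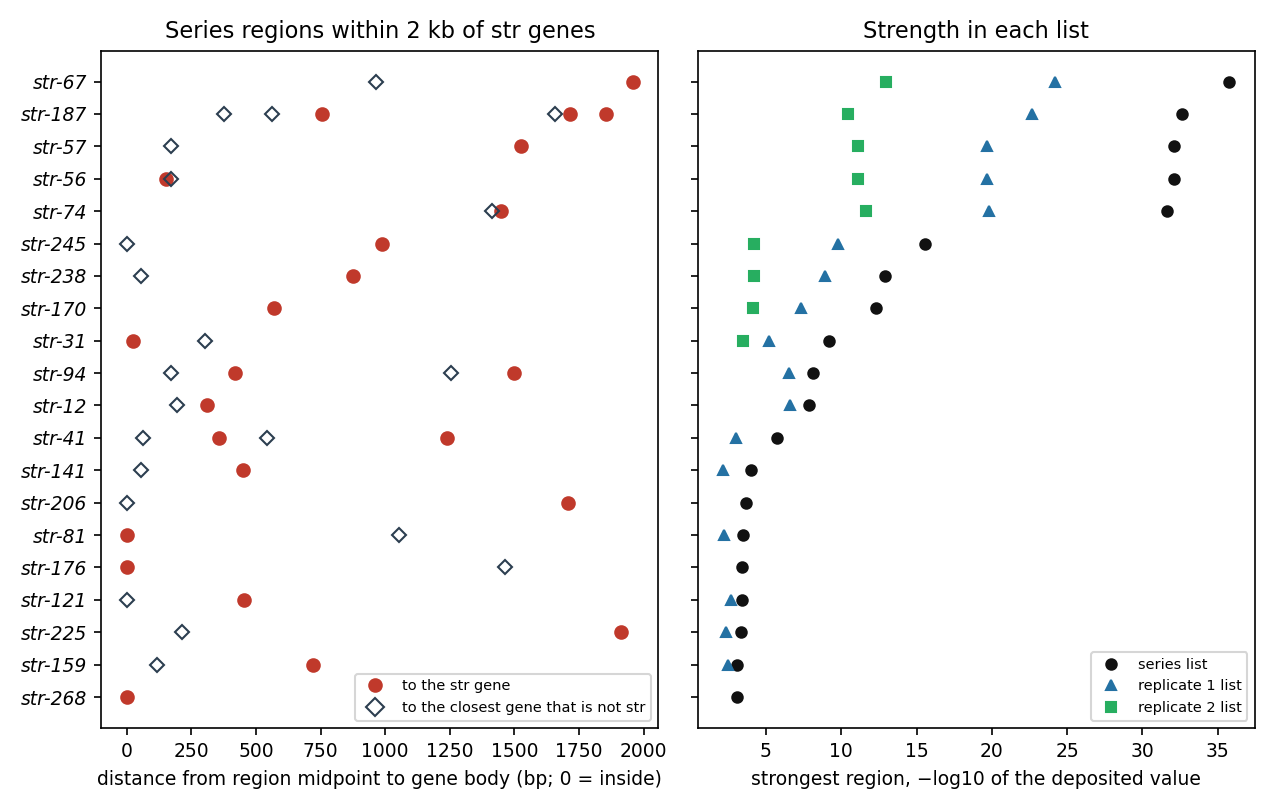
The 20 str genes with a series region, ordered by their strongest region. Left, distance in bp from each region midpoint to the str gene and to the closest gene that is not str. Right, −log10 of the smallest deposited value in each list. The 9 genes with replicate 2 regions are the upper 9, and open diamonds lie to the left of the filled circles for most regions.

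The str genes that did have regions were also compared by their support in the replicates. Of the 20, 9 had regions in both replicate lists as well, or 45% of them, and for the other protein-coding genes with a series region this was 45.5%. For the other chemoreceptor genes with a series region it was 29.1%, and these differences were not tested. In the series list and replicate 1 only were 8 str genes, in the series list alone 3. The 20 genes drew on 23 different regions, whose median width of 315 bp was close to the 312 bp of all series regions. Their median q-value was 2.23e-06 against 1.21e-07 over all regions, and 13 of the 23 were in the weaker 50% of the list. By definition that part holds 50% of all regions. The counts in it were 12 of 22 in replicate 1 and 4 of 8 in replicate 2.

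Most of these regions are shared with a gene outside the str family. Of the 23, 21 also fell in the body or within 2 kb of a protein-coding gene that is not a str gene (91.3%). Of the 6767 series regions assigned to any gene, 3125 were assigned to 2 or more (46.2%). These shares are not like measures, because a region near several genes has more chances to be counted at a str gene. In 15 of the 23, the gene that is not str was the nearer one. Given only to the nearest gene, regions were left at 8 str genes (4.15%), against 23.3% of the other protein-coding genes. The 8 are str-31, str-56, str-81, str-94, str-170, str-176, str-187 and str-268. The neighbours that were nearer include F-box, nuclear hormone receptor, transporter and enzyme genes, such as fbxa-153 beside str-12, nhr-204 beside str-121 and ugt-64 beside str-225.

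The str genes were then divided by the genes beside them. Of the 193 str genes, 123 have a gene from outside the chemoreceptor families within 2 kb, and 17 of these had a series region (13.8%, interval 8.26 to 21.2%). Of the 70 str genes with no such gene within 2 kb, 3 had one (4.29%, interval 0.893 to 12.02%). Where the closest protein-coding neighbour was itself a chemoreceptor gene, 4 of 91 str genes had a region (4.4%), and where it was another gene, 16 of 102 did (15.7%). The intervals overlap in the first pair, and also in the second, at 1.21 to 10.9% and 9.24 to 24.2%. For the second pair the replicate 1 list gave 4 of 91 (4.4%) and 14 of 102 (13.7%). Replicate 2 gave 3 of 91 (3.3%) and 6 of 102 (5.88%). The part of the neighbours in the low str share was not tested. Genes outside the chemoreceptor families also had lower shares beside a receptor gene. With a chemoreceptor gene as the closest neighbour, 112 of 618 had a region (18.1%), against 38.7% with any other neighbour. Both shares are over all chromosomes and were not matched for position. Chromosome V holds 80.8% of the str genes and 65.7% of the other chemoreceptor genes. Of the genes outside the families, 26.1% had a series region on V and 18.7% in the arms of V, defined below. The part of position in this contrast was not tested.

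The distances of the 173 str genes without a series region are given as a description only, as the same values were not taken for other genes without one. Their distance to the nearest midpoint ranged from 2.24 to 167.8 kb, with a median of 17.03 kb, and 33 were more than 50 kb away. Over all 193 str genes the median distance was 15.3 kb (quartiles 6.92 and 31.7 kb), and over the other protein-coding genes it was 4.45 kb. On V alone, where most str genes lie, the medians were closer, at 16.8 kb and 9.36 kb. The 2 kb limit falls between str-67 at 1.96 kb and str-225 at 1.91 kb on the inside and str-188 at 2.24 kb and str-263 at 2.61 kb on the outside.

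**Figure D3:**
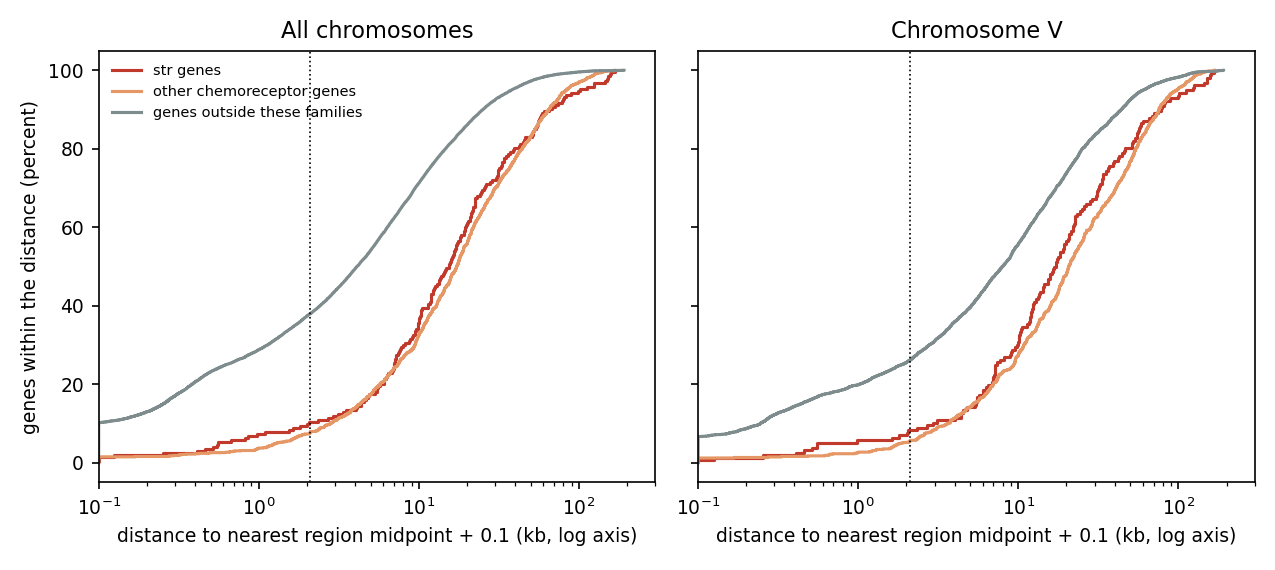
Cumulative percent of genes by distance from the gene to the nearest series region midpoint, plus 0.1 kb, on a log axis, for all chromosomes and for V. The dotted line marks 2 kb. The curves of the str and other chemoreceptor genes run together to the right of the other genes, with medians of 15.3, 17.1 and 4.003 kb over all chromosomes. On V the medians are 16.8, 20.6 and 7.84 kb in the same order.

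Since most str genes are on chromosome V, which has few regions, the comparison was repeated there. On V, 13 of 156 str genes had a series region (8.33%, interval 4.51 to 13.8%), against 23.0% of the other genes of V, a difference of -14.7 points (interval -18.3 to -9.14). Leaving the other chemoreceptor genes out of the comparison, 26.1% of the other genes of V had one. In the arms of V, the outer 50% of its length, 7 of 101 str genes had a region (6.93%) against 15.7% of the others. In its centre 6 of 55 did (10.9%) against 29.5%. In the arms the replicate 1 list gave 8 of 101 (7.92%) against 16.4%. The replicate 2 list alone gave 4 of 101 there (3.96%) against 5.02%, and the interval of that difference, -3.66 to 4.78 points, includes 0. In the centre the counts were 5 of 55 (9.09%) against 28.9% in replicate 1 and 1 of 55 (1.82%) against 13.4% in replicate 2. The part of the position on V in the genome-wide difference of -25.98 points was not tested. On IV, 5 of 28 str genes had a region (17.9%, interval 6.06 to 36.9%) against 35.2% of the others. There the interval of the difference, -27.4 to 0.498 points, includes 0, while against the genes outside the chemoreceptor families it runs from -28.4 to -0.456. In replicate 1, 3 of 28 had a region (10.7%) against 34.9%, with an interval of -31.4 to -7.62 points, and in replicate 2, 2 of 28 (7.14%) against 16.9%, with an interval of -15.1 to 5.76.

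The str genes of V are unevenly spread. With V divided into 10 parts of equal length, the second held 35 of the 156 and the eighth 47. In the second, 1 of 35 had a region, against 15.6% of the genes outside the chemoreceptor families in the same part. In the eighth, 3 of 47 did, against 19.6%. In the first, 3 of 14 had one (21.4%), close to the 23.1% of the genes outside the families.

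**Figure D4:**
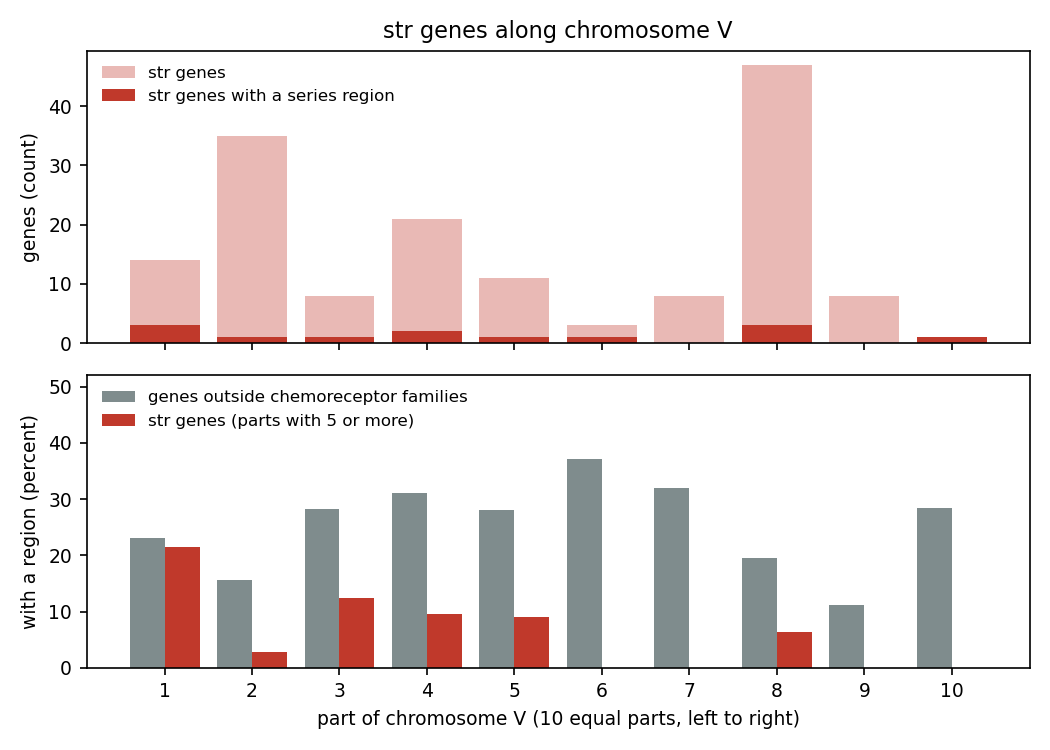
Chromosome V in 10 parts of equal length. Top, number of str genes and of those with a series region. Bottom, percent with a region among genes outside the chemoreceptor families and among str genes, the latter only for parts with 5 or more of them. The parts with most str genes, the second and eighth, have 1 of 35 and 3 of 47 with a region.

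Whole clusters of str genes lay between 2 adjacent series regions. Such a stretch from V 8045336 to 8129333, 83.998 kb long, holds 11 str genes, str-90, str-129, str-130, str-131, str-138, str-139, str-140, str-143, str-144, str-145 and str-146, among 23 protein-coding genes. Neither replicate list has a region in it. The stretch from V 16095137 to 16213396 (118.3 kb) holds 10 str genes among 42 protein-coding genes, including str-7, str-25 and str-103. It is also free of regions in both replicates. The longest distance between adjacent regions anywhere in the series list, V 2281888 to 2672672 (390.8 kb), holds 87 protein-coding genes. Of these, 8 are str genes and 13 are other chemoreceptor genes. Here replicate 1 lists 3 regions and replicate 2 none. These stretches were picked after their values were seen. In all, 8 stretches with 5 or more str genes hold 62 of the 193. A stretch that holds several genes is long by construction, so these lengths are a description only.

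Of the 193 str genes, 172 had no region within 2 kb in any list (89.1%). The same share was 60.4% for all other protein-coding genes and 90.0% for the other chemoreceptor genes. Among the 172 str genes are 5 members with known roles, named here whatever their values. They are str-1, a marker of the AWB odour neurons, str-2, expressed asymmetrically in the AWC odour neurons, str-3, expressed in the ASI neurons, str-44, a receptor gene of odour neurons that responds to feeding state, and str-217, needed for the response to the repellent DEET. Their nearest series midpoints were 7.88 kb from str-1, 32.4 kb from str-2, 3.24 kb from str-3, 11.3 kb from str-44 and 33.1 kb from str-217. The region nearest to str-3 was in all 3 lists, at 3.24 kb in each. The diacetyl receptor gene odr-10 resembles the str genes by sequence but has another symbol. A region lay 1.94 kb from it in the series list and 1.95 kb in replicate 2, but the nearest in replicate 1 was 15.6 kb away.

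Other chemoreceptor families had low shares too. Over the 21 other chemoreceptor families, chosen by symbol and with 1115 genes, 86 had a series region (7.71%, interval 6.22 to 9.44%). The difference of the str genes from them was 2.65 points, with an interval from -1.3 to 7.95 that includes 0. Among the families closest to str by sequence, 13 of 220 srh genes (5.91%), 6 of 67 srd genes (8.96%), 5 of 61 sri genes (8.2%) and 1 of 39 srj genes (2.56%) had a region. The highest share among families of 30 or more genes was that of sre, at 11 of 54 (20.4%, interval 10.6 to 33.5%), most of whose genes lie outside V. Of the 33 str pseudogenes, 1 had a region (3.03%).

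**Figure D5:**
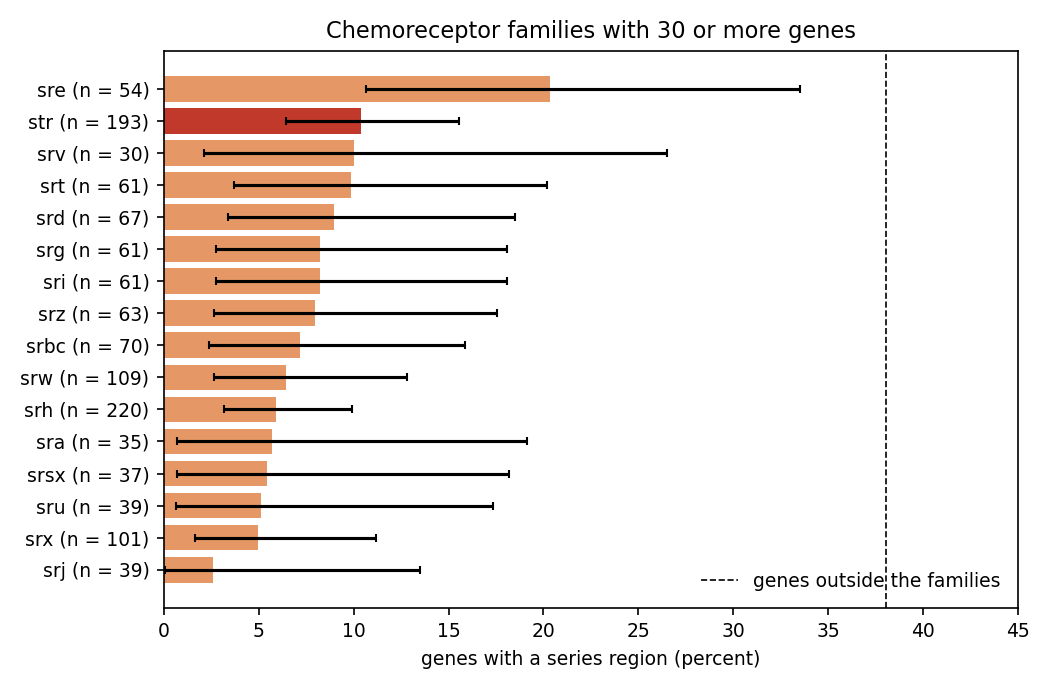
Percent of genes with a series region in each chemoreceptor family of 30 or more genes, with exact 95% intervals as error bars. The dashed line is the 38.1% of genes outside these families. All 16 families lie below it, and str is second from the top at 10.4%.

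A mixed list of genes of chemosensory signalling and of sensory neurons, chosen for their known roles, was counted in the same way. It includes genes of intraflagellar transport such as osm-6. Of the 38, 19 had a series region (50%, interval 33.4 to 66.6%), 20 in replicate 1 (52.6%) and 11 in replicate 2 (28.9%). Over the genes outside the chemoreceptor families the shares were 38.1% in the series list, which lies within that interval, 37.1% in replicate 1 and 18.1% in replicate 2. Regions lay inside tax-6, the catalytic subunit of calcineurin, inside osm-6, a gene of intraflagellar transport, and inside unc-43, the calcium/calmodulin-dependent kinase II gene, in all 3 lists. The cyclic nucleotide-gated channel subunit gene tax-2 had a region 1.79 kb away in each list, whereas that of tax-4 was 3.35 kb away in the series list. The G protein genes odr-3, gpa-2, gpa-3, gpa-5 and gpa-13 and the guanylate cyclase genes odr-1 and daf-11 had none within 2 kb in any list. The same held for tax-4 and ocr-2, while osm-9 had a region inside it in the series list and replicate 1. Series regions also lay inside egl-4, mls-2, unc-3 and unc-30. The 50% is therefore a share of the mixed list, not of the receptor signalling genes alone. The difference between this list and the str genes was not tested.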

How the data were processed

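Per the file headers, the deposited lists of UNC-62 binding regions are on WormBase WS220, and their source column names PeakSeq. The authors deposited 1 value per region, which was read as a p-value corrected for multiple tests (q-value). This reading is an assumption. The version of PeakSeq, the aligner, the filters on reads and the making of the series list are not given in the labels or headers. Depth is unknown.

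Genes came from a RefSeq table of the WBcel235 assembly, a later build, of which no coordinate is printed. Distances between regions and genes can therefore be off by some bases, taken as 100 bp at most. The table gives no strand. The planned window, 2 kb upstream to the 3′ end, was replaced by the gene body with 2 kb on both sides, with bounds that hold for either strand. No promoter or protein sequence was at hand, so the planned motif count was not run.

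Shares carry exact 95% Clopper-Pearson intervals and differences 95% Newcombe intervals (SciPy 1.17.1, pandas 2.3.3). The counting was tested on simulated regions. Chemoreceptor families were taken by symbol. The members and lists were chosen with earlier results of these data known. The genes named by rule are all str genes with a region in any list, their neighbours at the same region and 6 receptor genes of known role. The str genes just outside the 2 kb limit and those in stretches between regions were named after their values were seen.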

Additional observations from a re-analysis of the deposited data

How the results depend on the processing

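The str share stayed below that of the other genes in all 18 alternatives run, and the interval of the difference excluded 0 in each. The 18 do not include IV alone or the arms of V alone, where some intervals given above include 0. Nor do they include chromosomes I, II, III and X together, with 9 str genes. There the interval was -35.9 to 12.6 points in the series list, and in replicate 2 the str share was higher, at 22.2% against 20.5%. The str share was 17.6% with 5 kb on either side, 1.55% in the gene body only, 5.7% with the stronger 50% of the series list, 4.66% with series regions found in both replicates, 5.7% with the replicate 1 list under 0.001, 2.07% for genes that qualify whatever the strand, and 4.15% with each region given to the nearest gene only. The difference was -20.5 points with 1 kb, -34.95 with 5 kb, -8.16 in the gene body, -15.5 with the stronger 50%, -11.6 with regions in both replicates, -14.7 on V, -20.5 in the arms of the autosomes, -11.02 whatever the strand and -19.1 with the nearest gene only. Narrower windows, shorter lists and fewer assignments lower both shares by construction. Leaving out a replicate gave str shares of 4.66% to 9.33%, differences of -26.2 to -12.5 points, shares of other chemoreceptor genes of 2.78% to 7.62% and of the signalling list of 28.9% to 52.6%. The lower of these shares come from the replicate 2 list alone. It also gave the lowest median rank of regions at str genes, 42.1% of the way down the list against 65.9% in replicate 1 and 59.995% in the series list, and median widths of 290 to 323.5 bp. With regions moved by 100 bp, 18 str genes were left in one direction and 20 in the other. The windows of 1 and 5 kb were taken on both sides for want of strand, and the assignments by strand and by nearest gene and the comparison without other chemoreceptor genes were chosen after seeing the data. The nearest 5′ end and the motif windows were not run. No paired analysis was possible because lists of the Input samples, which share replicate numbers 1 and 2 with the ChIP samples, were not analysed here. Depth is unknown, so what it limits at str genes cannot be stated.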
